A study of Mus musculus with 64 samples.

Results

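Microglia of the mouse frontal cortex collected by day were compared between 8 libraries labelled Soci or Cogn and 8 control libraries labelled Ctr0 or Ctr1. These 16 libraries, 4 from each of the groups Frontal_cortex_Day_Soci, Frontal_cortex_Day_Cogn, Frontal_cortex_Day_Ctr0 and Frontal_cortex_Day_Ctr1, were chosen by their labels out of the 64 libraries of the study, which also hold the hippocampus and a night collection. All came from male C57BL/6 mice (C57BL6/N in the study’s methods) of 9 to 10 weeks, for which the labels name no altered allele, and the microglia were pulled out of dissociated tissue with magnetic beads against CD11b, a surface protein that microglia share with other macrophages, monocytes and neutrophils. Total RNA was sequenced after removal of ribosomal RNA, and reads were counted per gene. The labels used here do not say what was done to the Soci, Cogn, Ctr0 or Ctr1 animals, and they do not say whether Day is the light or the dark phase. The study gives the times as ZT4 in the light phase and ZT16 in the dark phase, counted in hours from lights on. Its methods state that the mice for microglia lived on a reversed light-dark cycle, with lights off during the daytime. Nothing in the labels says that libraries of a group came from separate animals, so the p-values measure the spread between libraries, which may in part be technical.

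Microglia are the resident macrophages of the brain. They survey the tissue, clear debris and synapses, and release chemokines, complement and growth factors. They carry a circadian clock, in which CLOCK and BMAL1 (gene Arntl) switch on their own repressors, and they hold the glucocorticoid receptor, through which the daily and stress-driven rise of corticosterone reaches their genes. Interferons act on them through STAT proteins and interferon-regulatory factors that bind short GAAA repeats in promoters.

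The short DNA elements of these pathways are shown first in the promoters of 3 genes from the lists described further on, because the glucocorticoid-responsive and interferon-stimulated genes are followed through the comparisons. Each run covers 250 bases before and 50 bases after a RefSeq start of the gene, the first listed that held a match. Runs are given from GRCm38.p6, 300 bases, 5′ to 3′ in the direction of transcription, with matches in capitals. For Sgk1, a kinase gene that glucocorticoids induce, the match is the receptor’s palindrome, AGAACA and TGTTCT set 3 bases apart, 189 bases before the start. For Isg15, a ubiquitin-like protein, and Ifit3, an antiviral protein, the matches are to GAAA followed after 2 bases by GAAA, on either strand, and those of Isg15 overlap each other.
Sgk1, chr10:21993640-21993939, plus strand: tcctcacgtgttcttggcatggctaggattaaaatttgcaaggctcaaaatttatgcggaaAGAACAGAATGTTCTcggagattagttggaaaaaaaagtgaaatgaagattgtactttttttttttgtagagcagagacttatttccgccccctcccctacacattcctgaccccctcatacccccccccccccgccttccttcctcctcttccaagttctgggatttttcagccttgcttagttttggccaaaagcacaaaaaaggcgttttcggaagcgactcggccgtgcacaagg
Isg15, chr4:156200769-156201068, minus strand: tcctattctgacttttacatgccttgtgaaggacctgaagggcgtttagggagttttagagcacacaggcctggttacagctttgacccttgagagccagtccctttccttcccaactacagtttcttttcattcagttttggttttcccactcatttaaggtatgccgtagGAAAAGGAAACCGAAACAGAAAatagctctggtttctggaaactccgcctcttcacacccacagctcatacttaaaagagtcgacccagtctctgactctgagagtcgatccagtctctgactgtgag
Ifit3, chr19:34583279-34583578, plus strand: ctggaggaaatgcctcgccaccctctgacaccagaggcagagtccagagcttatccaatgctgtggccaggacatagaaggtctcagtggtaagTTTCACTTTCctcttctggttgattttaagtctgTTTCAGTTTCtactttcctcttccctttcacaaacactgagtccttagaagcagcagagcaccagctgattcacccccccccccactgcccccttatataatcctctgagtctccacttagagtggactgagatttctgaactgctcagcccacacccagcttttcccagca
Of all 32851 RefSeq promoters of this length, 0.00913% held the palindrome and 3.44% the GAAA pair, searched on both strands. Among the glucocorticoid-responsive genes listed here, 15 of 16 had a promoter entry and 1 of them, Sgk1, held the palindrome. Among the interferon-stimulated genes, 12 of 18 had an entry and 8 held the GAAA pair: Ifit1, Ifit3, Isg15, Stat2, Oas1a, Rsad2, Ifitm3 and Bst2. The CLOCK element CACGTG stood in 7.15% of all promoters and in 5 of the 18 matched clock genes of 21, namely Per1, Cry1, Ciart, Bhlhe41 and Tef. The percentages count promoters. A listed gene was counted if any of its promoter entries held the element, so its share is not of the same kind. These are matches of letters and not measured binding.

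Libraries held 10.2 M to 24.5 M counts, and levels are given in the count-per-million unit after TMM scaling (CPM), where 3 counts are worth 0.163 to 0.312 CPM. Ctr0 replicate 1 stood apart with 24.5 M counts, of which 51.3% fell on Gm26917, against 19.2% to 41.6% in the others. Soci and Cogn averaged 13.2 M counts with 31.4% on Gm26917 and the controls 14.1 M with 32.3%, and no difference was detected (exact permutation tests, two-sided, p = 0.746 and 0.841). On the first principal component, 31.5% of the variance, Ctr0 replicate 1 and Cogn replicate 4 lay at one end and Ctr0 replicates 3 and 4 at the other, and the second, 17.9%, set Soci replicate 2 apart. The microglial markers P2ry12, Tmem119, Cx3cr1, Sall1, Siglech, Csf1r, Aif1 and Itgam were present in every library, with means over the 16 libraries of 2027 CPM for P2ry12, 1360.0 CPM for Tmem119 and 3033 CPM for Cx3cr1. Markers of other cells were present as well. Their sums were highest for endothelial and mural cells, at up to 968 CPM, and for border macrophages, at up to 1600 CPM, and none of the 12 marker lists had a gene at 0 in all 16 libraries.

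No gene of the 15235 tested separated Soci and Cogn from the controls at an adjusted p under 0.05 (edgeR quasi-likelihood test, Benjamini-Hochberg), with 0.166 the smallest adjusted p. At an unadjusted p under 0.05 stood 1100 genes, 7.22% of those tested, of which 436 (2.86%) were higher in Soci and Cogn and 664 (4.36%) lower. DESeq2 on the same counts called 18 genes, 5 higher and 13 lower, all within the 20 genes of lowest p by edgeR. Across all genes the median difference was -0.02 on the log2 scale and the median SE 0.12. With libraries scaled by their totals alone, 267 genes stood at an unadjusted p under 0.05, 145 higher and 122 lower, so the surplus of lower genes was not present under that scaling. Without Soci replicate 2 the count was 794, without Ctr0 replicate 1 it was 1261 and without Soci replicate 4 it was 1692, with 0 genes called in each case. Against Ctr0 alone the count was 1286 and against Ctr1 alone 442. The plot of p against fold change shows both sides and where the leading genes lie.

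**Figure D1:**
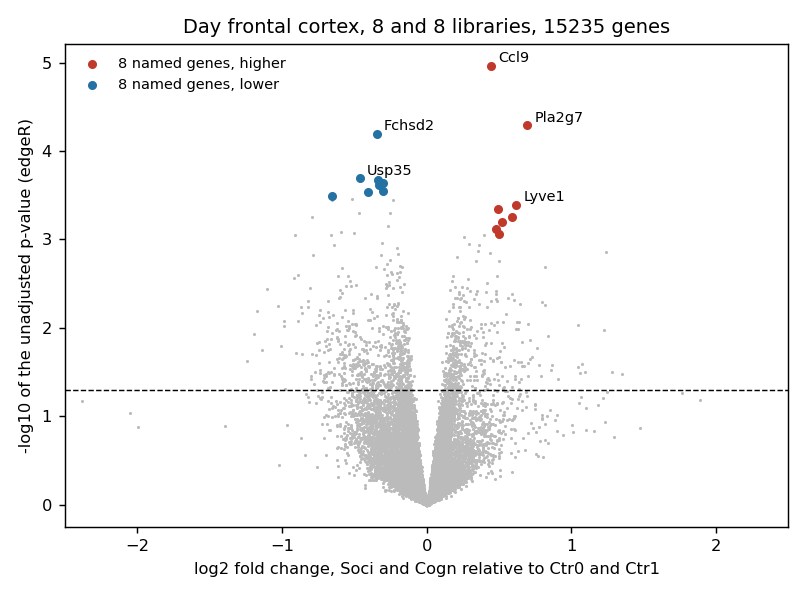
Each point is 1 of the genes tested in day frontal cortex, with the log2 fold change of Soci and Cogn over Ctr0 and Ctr1 on the horizontal axis and -log10 of the unadjusted edgeR p on the vertical axis. The 8 named genes of each direction are filled in red (higher) and blue (lower), and the dashed line is an unadjusted p of 0.05; Ccl9 and Pla2g7 lead on the higher side and Fchsd2 on the lower side, and no gene passed an adjusted p of 0.05.

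The lowest p belonged to Ccl9, a CC chemokine gene that attracts myeloid cells (chr11:83572919-83578636, minus strand, GRCm38). Ccl9 stood at 54.3, 67.6, 60.7 and 49.5 CPM in the 4 Soci libraries and at 57.6, 56.7, 51.5 and 58.4 CPM in the 4 Cogn libraries. In the controls Ccl9 read 45.4, 38.3, 42.4 and 40.2 CPM in Ctr0 and 39.4, 43.9, 47.8 and 37.0 CPM in Ctr1. Every Soci and Cogn library lay above every control library. The group means of Ccl9 were 57.0 ± 5.65 and 41.8 ± 3.73 CPM (SD, n = 8 each), so Soci and Cogn stood 0.45 ± 0.07 higher on the log2 scale (± is the SE of the fit from here on; edgeR, adjusted p = 0.166). Fitted with 1 mean for the 8 control and 1 for the 8 other libraries, Ccl9 had an edgeR adjusted p of 0.042.

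Pla2g7, which encodes the secreted hydrolase of platelet-activating factor (chr17:43568098-43612201, plus strand), was next among the higher genes. Pla2g7 read 14.3, 11.1, 7.99 and 14.9 CPM in Soci and 10.1, 11.9, 8.46 and 12.2 CPM in Cogn. The controls gave 6.96, 7.54, 7.56 and 6.34 CPM in Ctr0 and 6.63, 7.34, 7.74 and 5.81 CPM in Ctr1, again with no overlap between the sides. The log2 difference was 0.70 ± 0.13 (edgeR, adjusted p = 0.327). Replicate 3 was the lowest library of Pla2g7 in Soci and in Cogn, and without Soci replicate 3 the edgeR adjusted p was 0.0399.

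Lyve1, a hyaluronan receptor that marks macrophages of the brain’s borders and vessels (chr7:110850607-110863239, minus strand), read 36.3, 33.2, 32.5 and 35.8 CPM in Soci and 28.1, 37.7, 24.8 and 38.9 CPM in Cogn. Its control values were 25.1, 20.5, 27.0 and 17.1 CPM in Ctr0 and 16.6, 23.7, 28.7 and 15.1 CPM in Ctr1. The 4 Soci libraries lay above all controls, while Cogn replicates 1 and 3 lay within their range. The log2 difference of Lyve1 was 0.62 ± 0.14 (edgeR, adjusted p = 0.441). Sult1a1, a sulfotransferase gene (chr7:126672865-126676432), ranged from 64.4 to 87.9 CPM in Soci and Cogn and from 35.3 to 68.9 CPM in the controls, so the arms crossed in Cogn replicates 1 and 2. Its log2 difference was 0.52 ± 0.12 (edgeR, adjusted p = 0.488).

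The other 4 genes of lowest p on the higher side overlapped between the arms. The adhesion molecule Vcam1 read 27.3 to 45.5 CPM in Soci and Cogn and 19.1 to 33.1 CPM in the controls, a log2 difference of 0.59 ± 0.14. Egfr, the epidermal growth factor receptor, read 4.48 to 6.81 against 3.42 to 4.99 CPM, or 0.50 ± 0.11 on the log2 scale. Tlr8, an endosomal sensor of RNA, read 6.45 to 9.90 against 3.77 to 7.08 CPM, or 0.48 ± 0.12. Gvin1, one of a family of similar very large interferon-inducible GTPases among which reads may be shared, read 3.45 to 4.76 against 2.06 to 3.77 CPM, or 0.50 ± 0.12. The edgeR adjusted p of these 4 genes lay at 0.45 for Vcam1 and Egfr and 0.49 for Tlr8 and Gvin1. Tlr8 also separated the control groups, with a log2 difference of -0.48 between Ctr1 and Ctr0, about the size of its difference from Soci and Cogn.

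On the lower side Fchsd2, which encodes an F-BAR and SH3 protein of endocytosis and actin assembly (chr7:101092863-101284405, plus strand), had the lowest p. Fchsd2 read 199, 168, 189 and 217 CPM in Soci and 167, 197, 183 and 162 CPM in Cogn. Its control values were 223, 235, 271 and 262 CPM in Ctr0 and 239, 204, 228 and 223 CPM in Ctr1. Only Soci replicate 4 reached into the control range, above Ctr1 replicate 2. The log2 difference of Fchsd2 was -0.35 ± 0.06 (edgeR, adjusted p = 0.327). Usp35, a deubiquitinase gene (chr7:97309380-97332020, minus strand), read 36.9, 30.7, 30.7 and 32.9 CPM in Soci and 30.7, 40.0, 35.0 and 30.4 CPM in Cogn. Usp35 read 53.6, 51.2, 38.9 and 52.8 CPM in Ctr0 and 43.7, 33.7, 41.4 and 53.7 CPM in Ctr1, with overlap from Ctr0 replicate 3 and Ctr1 replicate 2. Its log2 difference was -0.46 ± 0.10 (edgeR, adjusted p = 0.424).

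The other 6 lower genes of lowest p had an edgeR adjusted p of 0.424 each. Tanc2, a scaffold protein gene, read 516 to 601 CPM in Soci and Cogn and 560 to 762 CPM in the controls, a log2 difference of -0.33 ± 0.07. Gm11653, a processed pseudogene that lies inside the span of Tanc2 on the same strand (chr11:105875905-105876913), read 3.82 to 10.7 against 10.5 to 14.2 CPM, a log2 difference of -0.65 ± 0.14. Its reads cannot be told apart from unspliced Tanc2 RNA in a gene count table, so these are not independent values. Vav2, a guanine nucleotide exchange factor, read 80.5 to 114 against 107 to 138 CPM, or -0.33 ± 0.07. Parp8, an ADP-ribosyltransferase gene, differed by -0.30 ± 0.06, Tbc1d8, of a family of Rab regulators, by -0.30 ± 0.07, and the tetraspanin gene Tspan18 by -0.40 ± 0.09. The plot of the single libraries shows the spread within each group.

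**Figure D2:**
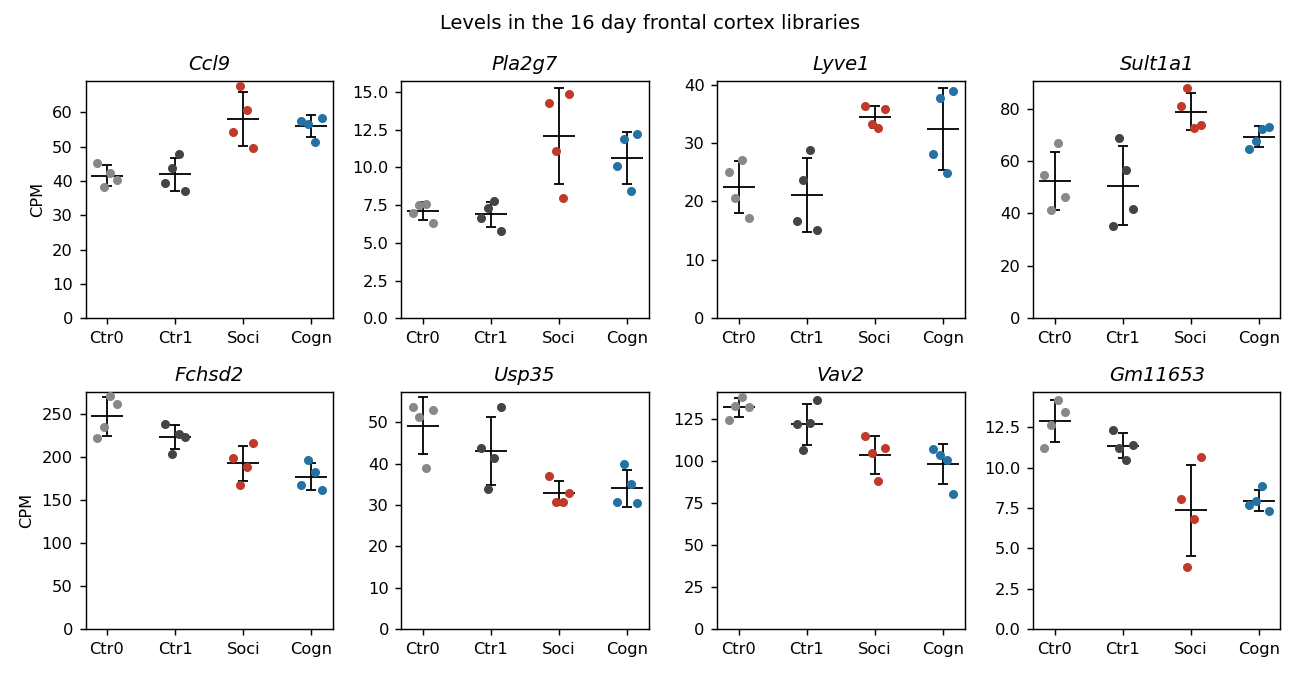
CPM of 8 leading genes in each library (vertical axes, linear, 1 panel a gene), with 4 points each for Ctr0, Ctr1, Soci and Cogn with a line at the group mean and bars of 1 SD. The 8 Soci and Cogn points of Ccl9 and Pla2g7 lie above all control points; those of Lyve1, Sult1a1, Fchsd2, Usp35, Vav2 and Gm11653 overlap them in 1 or more libraries.

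Over all genes tested, 6 (0.0394%) had no overlap between the 8 and the 8 libraries, 3 in each direction (0.0197%). Above the controls were Ccl9, Pla2g7 and BC031181, which read 14.6 to 18.3 CPM against 11.5 to 14.4 CPM. Below them were the unclassified transcript Gm37311, at 4.05 to 6.62 against 6.90 to 9.31 CPM, the microRNA host gene Mir99ahg, at 32.6 to 56.9 against 57.3 to 71.8 CPM, and Arid3a, a DNA-binding protein gene, at 35.0 to 38.9 against 39.2 to 45.1 CPM. Arid3a had the smallest difference of the 6, -0.17 ± 0.05 on the log2 scale (edgeR, adjusted p = 0.633). BC031181, Gm37311, Mir99ahg and Arid3a were named after their values were seen.

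Soci and Cogn were then set apart, each against the same 8 control libraries, which both comparisons share. For Soci, 0 of 15235 genes passed (edgeR; DESeq2 2), and 813 (5.34%) stood at an unadjusted p under 0.05, 397 higher (2.61%) and 416 lower (2.73%). The Soci count was 1326, 445, 525 and 1535 without Soci replicates 1, 2, 3 and 4 in turn. For Cogn, 0 passed (edgeR; DESeq2 1, Fchsd2), and 610 (4%) stood at an unadjusted p under 0.05, 199 higher (1.31%) and 411 lower (2.7%). The Cogn count was 324 without Cogn replicate 1, 924 without replicate 2, 311 without replicate 4 and 988 without Ctr0 replicate 1. Ccl9 differed from the controls by 0.47 in Soci and 0.42 in Cogn on the log2 scale, Pla2g7 by 0.79 and 0.61, Lyve1 by 0.67 and 0.58, and Sult1a1 by 0.61 and 0.43. Egfr gave 0.47 and 0.52, and Vcam1 0.68 and 0.50. Fchsd2 gave -0.28 in Soci and -0.41 in Cogn, and Usp35 -0.49 and -0.44. The genes were chosen on the mean of both conditions against these controls, so a shared sign follows from the choice. Catspere2, a sperm ion channel subunit gene, was among the genes of lowest p in Soci, at -0.81 ± 0.19 on the log2 scale, and read 1.21 to 2.05 CPM in Soci, 1.66 to 3.20 CPM in Cogn and 2.595 to 3.39 CPM in the controls.

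**Figure D3:**
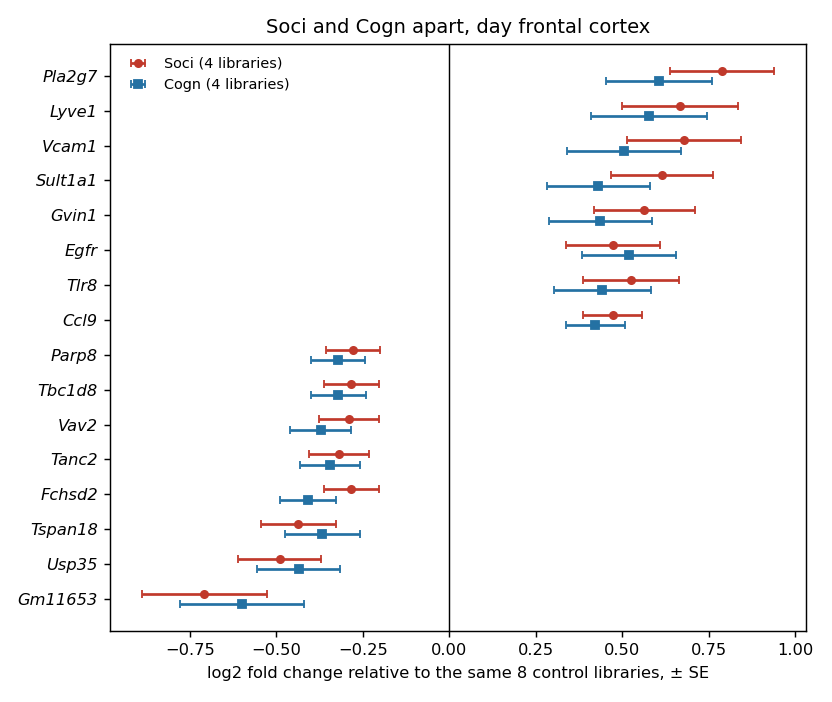
Log2 difference from the 8 shared control libraries of the leading genes, with Soci and Cogn as separate points and bars of 1 SE from edgeR. The genes were chosen on both conditions together; Pla2g7 reads 0.79 in Soci and 0.61 in Cogn, and Fchsd2 -0.28 and -0.41.

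Tested against each other, Soci and Cogn differed in 0 of 15235 genes (edgeR; also 0 by DESeq2), with 152 (0.998%) at an unadjusted p under 0.05 and a median SE of 0.16 on the log2 scale. The count was 229, 240 and 282 without Soci replicates 1, 2 and 4. The genes of lowest p were Cwf19l1, Tagap and Nfkbia. Cwf19l1, a gene of RNA lariat processing, read 7.74, 8.12, 6.18 and 7.15 CPM in Soci and 9.45, 9.68, 9.44 and 10.2 CPM in Cogn, a log2 difference of -0.41 ± 0.12, with the controls at 7.77 to 10.6 CPM. Tagap, a GTPase-activating protein of leukocytes, read 70.2, 88.4, 61.8 and 61.7 CPM in Soci and 57.7, 52.7, 47.6 and 44.9 CPM in Cogn. Nfkbia, the inhibitor that retains NF-kB in the cytoplasm, read 47.4, 54.2, 41.7 and 47.8 CPM in Soci and 43.1, 35.8, 29.3 and 34.8 CPM in Cogn. Both were higher in Soci by value, Tagap by 0.48 ± 0.14 and Nfkbia by 0.42 ± 0.13, and neither passed the test (edgeR, adjusted p = 1.00 for each). Between the control groups, Ctr1 against Ctr0, 0 genes passed (edgeR; also 0 by DESeq2) and 222 (1.46%) stood at an unadjusted p under 0.05, 92 higher in Ctr1 (0.604%) and 130 lower (0.853%). Without Ctr0 replicate 1 that count was 1183, and without Ctr1 replicate 2 it was 406. Isoc2a was among the lowest p there, at 3.28 to 4.20 CPM in Ctr0 and 5.16 to 6.03 CPM in Ctr1.

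Gene lists were described by the direction of their members, to be read against the 2.86% of all genes that were higher and the 4.36% that were lower at an unadjusted p under 0.05. By value alone, 6715 of the 15235 genes tested were higher in Soci and Cogn and 8520 lower. Whether members of a list vary independently of each other was not tested. No member of any list passed the adjusted threshold. Glucocorticoid-responsive genes were higher in Soci and Cogn by value in 16 of 16, with a median log2 difference of 0.44, and 8 stood at an unadjusted p under 0.05: Fkbp5, Tsc22d3, Sgk1, Zbtb16, Cdkn1a, Mt2, Fam107a and Sult1a1. Zbtb16, a transcriptional repressor, read 45.6, 50.9, 50.6 and 56.2 CPM in Soci and 37.3, 55.0, 59.9 and 76.3 CPM in Cogn. Its control values were 57.2, 18.7, 29.2 and 35.3 CPM in Ctr0 and 21.9, 53.0, 15.04 and 17.0 CPM in Ctr1, so Ctr0 replicate 1 and Ctr1 replicate 2 lay among the Soci and Cogn libraries. The log2 difference of Zbtb16 was 0.82 ± 0.26 (edgeR, adjusted p = 0.633).

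Fkbp5, the co-chaperone that dampens the glucocorticoid receptor, read 137, 181, 112 and 106 CPM in Soci and 101, 165, 153 and 168 CPM in Cogn. The controls gave 84.2, 71.9, 119 and 105 CPM in Ctr0 and 45.7, 152, 85.5 and 56.5 CPM in Ctr1, with Ctr0 replicates 3 and 4 and Ctr1 replicate 2 inside the range of the other arm. The log2 difference of Fkbp5 was 0.64 ± 0.21 (edgeR, adjusted p = 0.633). Sgk1, whose promoter holds the palindrome shown above, differed by 0.26 ± 0.09, and Tsc22d3, which encodes the anti-inflammatory protein GILZ, by 0.39 ± 0.17. The metallothionein gene Mt2 differed by 0.58 ± 0.24 and Fam107a, a stress-induced actin regulator gene, by 0.53 ± 0.18. Against the shared controls the list’s median was 0.51 in Soci and 0.24 in Cogn, with 10 and 4 members at an unadjusted p under 0.05. Ddit4, an inhibitor of mTOR signalling named after its values were seen, stood at 1.09 in Soci and -0.10 in Cogn. Without Cogn replicate 4, 5 members of the list stood at an unadjusted p under 0.05 in place of 8.

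The border macrophage markers are a list of another cell type that the CD11b beads would also hold. By value 9 of 10 were higher in Soci and Cogn, with a median log2 difference of 0.25, and 5 stood at an unadjusted p under 0.05: Lyve1, Mrc1, Cd163, F13a1 and Cbr2. The mannose receptor gene Mrc1 read 242, 238, 224 and 193 CPM in Soci, 226, 245, 179 and 238 CPM in Cogn, 168, 169, 205 and 186 CPM in Ctr0, and 126, 174, 224 and 150 CPM in Ctr1. Cd163, the haemoglobin scavenger receptor, read 42.2 to 75.1 CPM in Soci and Cogn and 29.0 to 62.6 CPM in the controls, a log2 difference of 0.48 ± 0.15 (edgeR, adjusted p = 0.633). Pf4 differed by 0.08, Stab1 by 0.06, Cd209f by 0.04 and Ms4a7 by -0.04, all from the same list. The list summed to 1237 to 1600 CPM in Soci and Cogn and 982 to 1524 CPM in the controls. In these bulk samples more cells of a type and more RNA per cell cannot be told apart.

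Genes linked to disease-associated microglia, a phagocytic state seen around lesions, were higher by value in 19 of 19, with a median of 0.19 on the log2 scale and 4 at an unadjusted p under 0.05. These were Apoe, the lipid carrier, at 0.39 ± 0.14, the receptor kinase Axl at 0.34 ± 0.12, osteopontin (Spp1) at 0.66 ± 0.24 and the chemokine Ccl6 at 0.21 ± 0.07. Apoe read 287, 369, 242 and 183 CPM in Soci, 263, 281, 155 and 219 CPM in Cogn, 196, 196, 162 and 198 CPM in Ctr0, and 162, 215, 204 and 187 CPM in Ctr1. Soci replicate 2 was the highest library of Apoe and of Axl. In Soci 9 members stood at an unadjusted p under 0.05 and in Cogn 0, and between Soci and Cogn 4 did. Without Soci replicate 4 the count of the pooled comparison was 12, without Soci replicate 1 it was 8 and without Ctr1 replicate 3 it was 7. Of the homeostatic genes, those of the resting state, 14 of 15 were higher by value, with a median of 0.08 and 0 at an unadjusted p under 0.05. Among them Siglech differed by -0.06, P2ry12 by 0.10 and Tmem119 by 0.12.

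Transcripts of the mitochondrial genome, which encode subunits of the respiratory chain, were higher by value in 7 of 7 tested, with a median of 0.33 and 6 at an unadjusted p under 0.05. The other 6 of the 13 protein genes were listed at 0 in all 16 libraries. The cytochrome oxidase gene mt-Co1 read 1515 to 2931 CPM in Soci and Cogn and 1263 to 1721 CPM in the controls, and mt-Nd6 28.6 to 54.6 against 21.3 to 33.3 CPM. Cogn replicate 4 held the highest value of both. Without this library, without Ctr0 replicate 3 or without Ctr1 replicate 3 the count was 2 in place of 6. Cytosolic ribosomal protein genes were higher by value in 22 of 22, at a median of 0.15, with 7 at an unadjusted p under 0.05. That count was 15 without Soci replicate 4, 3 without Soci replicate 2 or Cogn replicate 1, and 4 without Ctr0 replicate 1, Ctr0 replicate 3 or Ctr1 replicate 1. With library totals alone the ribosomal count was 0 and the mitochondrial count 3.

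Interferon-stimulated genes were higher by value in 18 of 18, with a median of 0.23, and 0 stood at an unadjusted p under 0.05. Isg15 and Ifit3, whose promoters are shown above, differed by 0.40 ± 0.25 and 0.21 ± 0.19 on the log2 scale. Of 11 genes of antigen presentation 8 were higher by value, with a median of 0.25, and 3 stood at an unadjusted p under 0.05: B2m and the class I genes H2-K1 and H2-D1, which are alike in sequence and may share reads. That count was 0 without any 1 of Soci replicate 2, Cogn replicate 1, Ctr0 replicate 1 and Ctr1 replicate 1, and 1 without Cogn replicate 2 or Ctr1 replicate 4. Of 11 subunits and inhibitors of NF-kB, the transcription factor of inflammation, 9 were lower by value. Nfkb2 (-0.22 ± 0.07), Nfkbie (-0.19 ± 0.07) and Relb (-0.32 ± 0.13) stood at an unadjusted p under 0.05. The counts of the NF-kB and antigen presentation lists were 0 with library totals alone. Among 14 chemokine and cytokine genes tested, Tnf (-0.38 ± 0.15) and Ccl7 (-1.20 ± 0.42) were lower at an unadjusted p under 0.05 and the growth factor gene Igf1 (0.34 ± 0.14) higher. Ccl7 was low throughout, at 0.269 to 0.900 CPM in Soci and Cogn, and its highest value, 3.28 CPM, came from Ctr1 replicate 3.

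**Figure D4:**
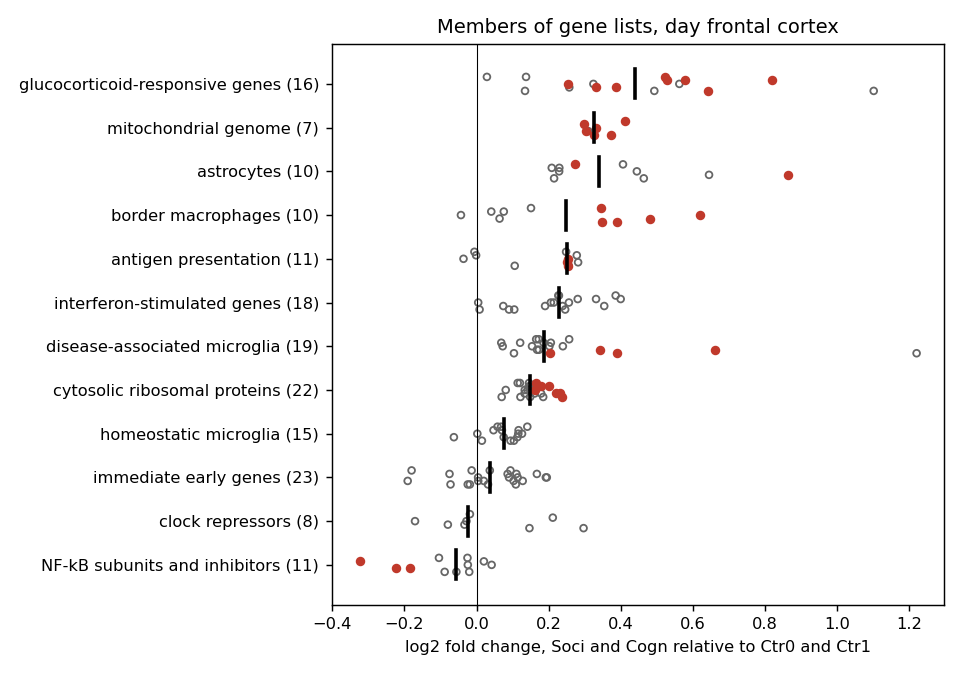
Log2 difference of Soci and Cogn from the controls for each tested member of the gene lists (points; filled where the unadjusted edgeR p was under 0.05), with a bar at the median of each list and the number tested in brackets. All 16 glucocorticoid-responsive, 19 disease-associated and 18 interferon-stimulated genes lie above 0, with medians of 0.44, 0.19 and 0.23, while clock repressors and NF-kB genes have medians of -0.02 and -0.06.

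Other lists held fewer members past an unadjusted p of 0.05. The glucose transporter genes Slc2a3 (0.48) and Slc2a1 (0.40) and the kinase Pgk1 (0.20) did so among 15 genes of glycolysis, Idi1 (0.64) among 15 of cholesterol synthesis, Hsp90ab1 (0.23) among 14 heat shock genes, and C4b among 11 complement genes, all higher by value. The counts were 0 of 23 for immediate early genes, whose median was 0.04, and 0 of 13 for the cell cycle. Astrocyte markers were higher by value in 10 of 10, with a median of 0.34 and 2 at an unadjusted p under 0.05, Slc1a3 and Gjb6, and summed to 379 to 623 CPM in Soci and Cogn and 333 to 512 CPM in the controls. Gjb6 was low and uneven in Soci, at 1.07 to 7.61 CPM with an SD of 3.09 about a mean of 3.10. It read 2.01 to 2.60 CPM in Cogn and 0.677 to 1.89 CPM in the controls. Choroid plexus markers reached 702 CPM in Cogn replicate 4 and 560 CPM in Soci replicate 4, against at most 344 CPM in the controls. The median of these sums was 45.2 CPM in Soci and Cogn and 34.2 CPM in the controls. Neutrophil and monocyte markers reached 139 CPM in Soci replicate 2 against at most 44.2 CPM in the controls, with a median log2 difference of 1.74 in Soci and 0.08 in Cogn. Soci replicates 1, 3 and 4 summed to 39.0, 33.9 and 18.8 CPM, within the control range of 14.5 to 44.2 CPM. With library totals alone, 4 astrocyte, 3 choroid plexus and 3 haemoglobin genes stood higher at an unadjusted p under 0.05. The part of these cells in the values of the other lists was not tested.

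Clock genes gave no member at an unadjusted p under 0.05 for Soci and Cogn together. In Soci alone 1 of 4 output genes did, and with another scaling, by median of ratios, 1 of 8 repressors. Log2 differences ran from -0.30 to -0.01 over 4 activators and from -0.17 to 0.30 over 8 repressors. The 4 nuclear receptors tested were all higher by value, at 0.09 to 0.41. Among the activators, Arntl (BMAL1) differed by -0.07 ± 0.12 and Clock by -0.02 ± 0.05 on the log2 scale. Among the repressors, Per1 differed by 0.15 ± 0.17, Per2 by -0.08 ± 0.15, Per3 by -0.17 ± 0.11 and Cry1 by 0.21 ± 0.10. Nr1d1, the REV-ERB alpha receptor gene, differed by 0.23 ± 0.22, and the output genes Dbp, Tef and Hlf by 0.01 ± 0.10, -0.06 ± 0.07 and 0.16 ± 0.08.

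The same contrast was then compared with that of the night libraries in 1 fit over the 32 frontal cortex libraries, as a test of whether it differed between day and night. Of 16238 genes, 4 (0.0246%) passed (edgeR), all with a more positive difference by day: Dbp, Iigp1, Gvin1 and Nr1d2. At an unadjusted p under 0.05 stood 781 genes (4.81%), 552 more positive by day (3.4%) and 229 more negative (1.41%). DESeq2 called 19 genes, and with libraries scaled by their totals alone edgeR called 0. By night alone, the contrast called 6 genes (0.037%), all lower in Soci and Cogn, and 1201 (7.4%) stood at an unadjusted p under 0.05.

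Dbp, a transcription factor gene driven directly by CLOCK and BMAL1, read 10.6, 11.6, 12.1 and 10.5 CPM in day Soci, 10.2, 11.5, 9.99 and 11.4 in day Cogn, 9.97, 9.01, 10.7 and 9.94 in day Ctr0, and 11.96, 7.72, 11.4 and 13.9 in day Ctr1. By night Dbp read 7.67, 7.17, 8.96 and 4.72 CPM in Soci and 8.32, 7.74, 6.87 and 7.31 in Cogn, against 13.01, 15.8, 11.7 and 15.2 in Ctr0 and 19.8, 21.2, 12.96 and 15.5 in Ctr1. The arms overlapped by day and not by night. In the joint fit the log2 difference of Dbp from the controls was 0.05 ± 0.12 by day and -1.09 ± 0.12 by night, and their difference was 1.14 ± 0.17 (edgeR, adjusted p = 0.00276). Nr1d2, the REV-ERB beta receptor gene, had group means of 57.4 CPM in day Soci, 57.5 in day Cogn, 49.4 in day Ctr0 and 55.3 in day Ctr1. By night these means of Nr1d2 were 37.4, 35.6, 50.2 and 61.4 CPM. Its difference between day and night was 0.74 ± 0.13 (edgeR, adjusted p = 0.0183), from 0.14 by day and -0.61 by night. Without day Ctr0 replicate 1 or day Cogn replicate 4 the call of Nr1d2 was lost (edgeR, adjusted p = 0.0841 and 0.0812). Nr1d2 also lost it when all libraries numbered 1, 2 or 4 were left out (edgeR, adjusted p = 0.151, 0.9998 and 0.324).

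The other 2 genes are interferon-inducible GTPases. Iigp1, which coats the vacuoles of intracellular parasites, had means of 3.98 CPM in day Soci and 4.64 in day Cogn against 2.77 in Ctr0 and 3.00 in Ctr1. By night Iigp1 stood at 2.24 and 2.68 CPM against 4.45 and 6.66. The difference between day and night was 1.73 ± 0.29 on the log2 scale (edgeR, adjusted p = 0.0154). Gvin1 had means of 4.64 and 4.18 CPM in day Soci and Cogn against 2.78 and 3.32 in the controls, and by night 2.77 and 2.30 against 2.94 and 4.37 CPM. The difference of Gvin1 was 1.05 ± 0.18 (edgeR, adjusted p = 0.0183), made up of 0.54 by day and -0.51 by night. Iigp1 and Gvin1 each lost the call when the libraries of any 1 replicate number were left out (edgeR, adjusted p from 0.0899 to 0.413 for Iigp1 and from 0.186 to 0.717 for Gvin1), and Dbp lost it without number 1 or 2 (0.151 and 0.413). For both genes the means of Soci and Cogn stood above the controls by day and below them by night. The plot of these 4 genes by day and night shows the single libraries.

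**Figure D5:**
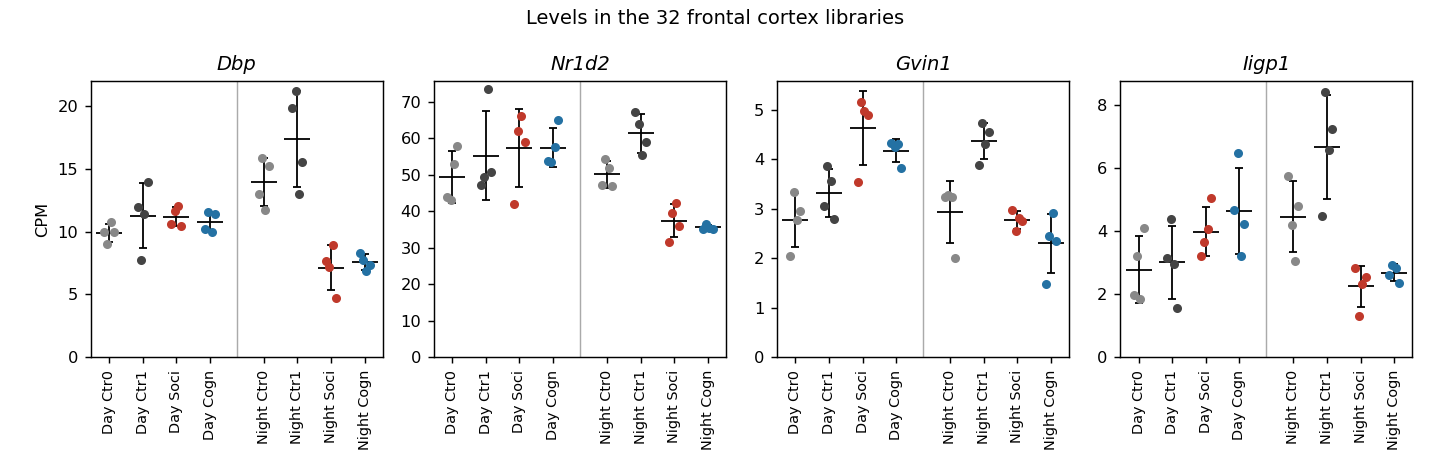
CPM of Dbp, Nr1d2, Gvin1 and Iigp1 in the 32 frontal cortex libraries (vertical axes), 4 points for each of the 4 conditions by day and by night, with a line at the mean and bars of 1 SD. For Dbp the Soci and Cogn libraries overlap the controls by day, with group means of 9.91 to 11.2 CPM. By night they all lie below the controls, where Soci and Cogn average 7.13 and 7.56 CPM and Ctr0 and Ctr1 13.96 and 17.4 CPM.

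The interferon-stimulated list held 14 of 18 members at an unadjusted p under 0.05 in the test between day and night, with a median of 0.71, against 3.4% of all genes in this direction, and 9 without day Soci replicate 4. Its median was -0.40 for the night contrast alone. Of the clock lists, 3 of 4 nuclear receptors (median 0.57), 3 of 4 output genes (0.47) and 2 of 8 repressors stood at an unadjusted p under 0.05. Border macrophage markers had 6 of 10 (median 0.74), antigen presentation 7 of 11 (0.43), mitochondrial transcripts 7 of 7 (0.61, and 4 without day Cogn replicate 4) and haemoglobin 5 of 5 (1.44), all more positive by day. Haemoglobin and border macrophage markers mark blood and other macrophages, and their part in the interferon values was not tested. Glucocorticoid-responsive genes had 0 of 16 in that test, with a median of 0.36. With library totals alone, the count between day and night was 9 for interferon-stimulated genes, 5 for antigen presentation and 5 for mitochondrial transcripts. Under that scaling it was 2 for nuclear receptors, 1 for output genes and 1 for repressors. For border macrophages and haemoglobin it stayed at 6 and 5.

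Against the hippocampus of the same collection, in a joint fit of 32 day libraries, 0 of 16103 genes passed (edgeR, smallest adjusted p = 0.924; DESeq2 0), and 741 (4.6%) stood at an unadjusted p under 0.05, 400 more positive in cortex (2.48%) and 341 more negative (2.12%). In the hippocampus alone, the same contrast called 4 genes (0.0248%), and 1093 (6.79%) stood at an unadjusted p under 0.05. Hnrnpm, Parvb and Mphosph8 had the lowest p, with differences between regions of -0.32, -0.43 and -0.35 on the log2 scale. The labels do not say whether cortex and hippocampus libraries came from the same animals. The joint fit took the 32 libraries as independent.

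Of the Cdr1as network, Cdr1 and C230004F18Rik were near the floor of detection and Cyrano was not. Cdr1, the locus that the circular RNA Cdr1as covers, read 0 to 0.229 CPM in the 16 libraries, and its host transcript C230004F18Rik (chrX:61116378-61292484) 0.149 to 0.787 CPM. Both fell below the count filter and were not tested. Gene counts do not separate reads of circular RNA from those of linear RNA, and head-to-tail reads were not counted on their own here. The study, which counted circular reads, places Cdr1as among the most abundant circular RNAs of its microglia and reports it higher in the light phase. Cyrano (1700020I14Rik, chr2:119594297-119607502), a long RNA that destroys miR-7, read 118 to 149 CPM in Soci and Cogn and 101 to 143 CPM in the controls, a log2 difference of 0.06 ± 0.07 (edgeR, adjusted p = 0.855).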

How the data were processed

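RNA of microglia from 16 day frontal cortex libraries was analysed, with 16 night frontal cortex and 16 day hippocampus libraries for comparison. The values are the gene read counts deposited by the authors, not normalised and not pooled. Per the submitters' processing notes, reads were mapped to GRCm38.p5 with STAR 2.7.3a and counted with featureCounts of Subread 2.0.0; strand and multi-mapping settings are not given in the sources used here. Groups and replicate numbers come from the labels. No library pair held identical counts, and over 24 pairs within groups the chi-square per degree of freedom was at least 8.26. Of 49671 gene identifiers, 49412 matched GENCODE M21, which gave names and coordinates. Genes were kept by filterByExpr (minimum count 10, minimum total 15), libraries were scaled by TMM, and 1 mean per group was fitted (12 residual degrees of freedom) with edgeR 4.0.16 in R 4.3.3 (glmQLFit, glmQLFTest; limma 3.58.1). P-values were adjusted by Benjamini-Hochberg over all genes tested, with a threshold of 0.05. CPM were computed from counts and TMM-scaled totals. Promoter sequences are from RefSeq. Scripts were tested on simulated counts.

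Named genes were, in the comparison of Soci and Cogn with the controls, up to 12 per direction past the threshold, filled to 8 by lowest p among genes of average log2 CPM of at least 1, and in other comparisons up to 5 per direction past the threshold or else the 3 of lowest p. Of each list up to 3 members of lowest p under 0.05 were added, with the 3 RNAs of the Cdr1as network; further list members were named after their values were seen. The comparison, lists and tests were chosen with earlier results of these data known. Alternatives were DESeq2 1.42.0, other scalings and filters, other control groups, covariates, a replicate block and leaving out libraries. Totals of 10.2 M to 24.5 M counts set the precision, and 3 counts equal 0.163 to 0.312 CPM.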

Additional observations from a re-analysis of the deposited data

Results flagged for a closer look

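Single libraries that stood far from the other 3 of their group were looked for in 272 groups of 4, of which 15 had one; chance gives about 1 in 20 groups, here 13.6. In Ctr0, replicate 1 held 24.5 M counts against 11.2 M to 13.04 M in the others, and 51.3% of counts on Gm26917 against 24.0 to 28.1. Replicate 3 of Ctr0 read low for Apoe (162 CPM against 196 to 198) and Usp35 (38.9 against 51.2 to 53.6) and high for Vcam1 (32.1 against 22.1 to 22.7), and replicate 4 high for Mphosph8 (12.1 against 11.3 to 11.4).

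In Ctr1, replicate 4 held 230.5 CPM of the small RNA gene Gm25911 (chr1:167340369-167340424) against 0 to 5.26 in the others. Replicate 3 of Ctr1 read high for Nr1d2 (70.9 against 46.4 to 50.0 CPM), replicate 2 low for Tspan18 (25.5 against 35.3 to 37.1) and replicate 1 low for Nfkbie (17.4 against 20.6 to 21.2). In Soci, replicate 1 stood apart for Gvin1 (3.45 against 4.63 to 4.76 CPM) and C230004F18Rik (0.673 against 0.463 to 0.470, which is 8 counts). In Cogn, replicate 4 was high for Slc2a1 (290.3 against 247 to 253 CPM) and mt-Nd6 (54.6 against 30.9 to 33.1). In the night Ctr0 group, replicate 4 was low for Gvin1 (2.00 against 3.23 to 3.29 CPM, scaled over the 32 frontal cortex libraries).

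The difference of Soci and Cogn from the controls was itself different between day and night for 4 genes, by an interaction contrast in edgeR. On the log2 scale, day minus night, it was 1.14 for Dbp, 1.73 for Iigp1, 1.05 for Gvin1 and 0.74 for Nr1d2.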

How the results depend on the processing

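For Soci and Cogn against the controls, edgeR called 0 genes in the main setting, DESeq2 called 18, a fit with 2 group means 1 (Ccl9) and the fit without Soci replicate 3 called 1 (Pla2g7); leaving out single libraries or replicate numbers gave 0 to 1. DESeq2 called 2 genes for Soci and 1 for Cogn against the controls, where edgeR called 0. The difference between day and night had 4 genes called, 0 with library totals alone and 19 by DESeq2, and 0 to 8 when libraries were left out: 0 without the libraries numbered 1 or those numbered 2, 2 without those numbered 3 or 4, 7 without night Ctr1 replicate 1 or without day Ctr0 replicate 4, and 8 without night Soci replicate 1. Dbp kept its call without the libraries numbered 3 or 4. The cause of these changes was not tested. The value of 1700020I14Rik (Cyrano) was 0.06 and ran from -0.022, without the libraries numbered 4, to 0.14, without those numbered 2. Of 2110 values of named genes under the alternatives, 2109 kept their direction, 19 lost and 18 gained significance. These genes were largely chosen by low p in the same counts that the alternatives reuse. A kept direction therefore follows in large part from the choice. With library totals alone, list members at an unadjusted p under 0.05 for Soci and Cogn against the controls went from 7 to 0 for ribosomal proteins, from 3 to 0 for NF-kB and antigen presentation, from 6 to 3 for the mitochondrial genome and from 8 to 6 for glucocorticoid-responsive genes.

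Pairing of the samples by replicate number was not established, and the check described here cannot exclude it. Over 24 pairs of libraries with the same number, deviations from the group means correlated with r from -0.48 to 0.485 (median 0.0418), 11 of them over 0.1, against a median of 0.00149 over 72 other pairs, and 5 of 16 libraries were closest to one of their own number. With a replicate block, 0 genes were called in each comparison except that between day and night, which had 4; 1069 genes then stood at an unadjusted p under 0.05 for Soci and Cogn against the controls. With 3 counts worth up to 0.312 CPM, Cdr1 lay below what these gene counts can compare.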
